A study of Ophiorrhiza pumila with 6 samples.

Results

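Hairy roots (HR) of *Ophiorrhiza pumila* in which *OpERF1* or *OpERF2* was targeted by RNA interference (RNAi) were compared, as 1 set of 4 lines, with 2 lines carrying a control construct, to find the transcripts that moved the same way under both constructs. Of 33271 plant contigs tested, 4750 were higher in all 4 silenced lines than in both control lines and 4518 were lower in all 4, that is, 14.3% and 13.6% of the contigs tested. These 9268 contigs are the members described here. They were chosen by this ordering alone, on CPM (the RSEM expected counts scaled to the library total and a TMM factor). The 6 libraries, 1 per line, were ERF1i-7 and ERF1i-19, whose RNAi construct targets *OpERF1*, ERF2i-2 and ERF2i-3, whose construct targets *OpERF2*, and GUSi-9 and GUSi-10, whose construct targets the bacterial GUS reporter that the plant lacks. All were total RNA of untreated HR at 3 weeks of age. Each number is an independently transformed clone kept as a root culture, so each construct had n = 2 clones, no clone was measured more than 1 time, and every line carries an RNAi vector and T-DNA of the root-inducing bacterium.

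HR grow from plant cells that took up T-DNA of *Agrobacterium rhizogenes*, whose rol genes drive root formation, and they produce camptothecin in this species. AP2/ERF proteins are plant transcription factors that act in ethylene, jasmonate and stress responses, and some members of the family switch on alkaloid genes in other plants. An RNAi hairpin is cut into small RNAs that guide the breakdown of matching transcripts. A control hairpin against a reporter that the plant lacks therefore carries the same machinery without a plant target. With the same 2 GUSi cultures as the control throughout, a difference that belongs to those cultures cannot be told apart from one that belongs to the silenced lines.

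Library totals were 11517610 to 13199946 expected counts, and TMM factors were 0.909 to 1.02 in the silenced lines and 1.07 to 1.08 in GUSi. Where 4 values are given for the silenced lines, their order is ERF1i-7, ERF1i-19, ERF2i-2, ERF2i-3, and GUSi values follow as GUSi-9, GUSi-10. The *OpERF1* contig (c15284_g1_i1) had 4.06, 22.0, 905 and 766 CPM in the silenced lines, against 228 and 149.8 CPM in GUSi, so it was low in both ERF1i lines and above GUSi in both ERF2i lines. The *OpERF2* contig (c17706_g2_i1) had 3.06, 8.69, 1.14 and 5.19 CPM in the silenced lines, against 4.55 and 2.50 CPM in GUSi. It was below both GUSi lines in the library labelled ERF2i-2 and above them in the library labelled ERF2i-3, these are low counts, and ERF2i as a group stood at a log2 of -0.15 against GUSi (SE 0.73, adjusted p = 0.903). The level thus goes against the label in the library labelled ERF2i-3, and "silenced lines" below means the 4 lines that carry a construct against either factor, whatever the level of its target. A hairpin holds a stretch of its target, and any reads from it were not separated here from those of the target. Neither target was on 1 side of GUSi in all 4 lines, so neither is a member. The clone numbers of the ERF2i libraries are exchanged between the sample labels, used here, and the deposited annotation table. Of 10 T-DNA contigs tested, 8 had at most 3 counts in each ERF1i library, among them those of mannopine synthase, an opine enzyme, and indole acetamide hydrolase, a bacterial enzyme of auxin synthesis. The phosphosugar isomerase contig (c31834_g1_i1) had 2, 3, 17237 and 8951 counts in the silenced lines, against 7383 and 7767 counts in GUSi. The rolB contig (c30113_g1_i1) had 885, 654, 671 and 683 counts in the silenced lines, against 1084 and 1692 counts in GUSi. T-DNA and other non-plant contigs were left out of all counts below, and the part of these T-DNA differences in any result was not tested.

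With the 4 silenced lines as 1 side and the 2 GUSi lines as the other, edgeR's quasi-likelihood test called 0 of 33271 plant contigs (0%) at an adjusted p under 0.05. The lowest adjusted p was 0.0665, and 2826 higher and 2023 lower plant contigs had an unadjusted p under 0.05. DESeq2 on the same sides called 950 contigs higher and 327 lower with all 4 lines beyond both GUSi lines, and limma-trend called 0 in each direction. The biological coefficient of variation, the spread between lines of a side, was 27.2% in this fit. Where the constructs were kept apart as 3 groups and their mean was set against GUSi, an alternative planned beside the 2-sided fit, that coefficient was 14.7%, and 1964 plant contigs were called higher (5.9%) and 1327 lower (3.99%) with all 4 lines beyond both GUSi lines. In what follows "rose" and "fell" refer to this 3-group fit, whose log2 differences are the mean of ERF1i and ERF2i minus GUSi, and every adjusted p is from edgeR's quasi-likelihood test with 3 residual degrees of freedom. A single contig could not pass an exact permutation test over the lines, since 4 against 2 allows no two-sided p below 0.0667.

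The number of calls rested on each of several libraries. Rises numbered 615 without the library labelled ERF2i-2, 829 without that labelled ERF2i-3, 625 when GUSi-9 was left out and 756 when GUSi-10 was, and falls numbered 233, 419, 330 and 343 in the same order, while without ERF1i-7 they were 2615 and 2203. The direction split rested on scaling: 59.7% of calls were higher with TMM, 30.7% with no scaling beyond the total count (1468 higher and 3309 lower), and 37.3% with limma-trend on log2(FPKM + 1) (1315 and 2207). The median log2 difference of all tested contigs was -0.01 with TMM and -0.16 without scaling, so each rise and fall below is relative to the bulk of the contigs. Without scaling, 1466 of the 1964 rises and 1327 of the 1327 falls were called again. Leaving out the TMM factors lowers every silenced line against GUSi, so the return of the falls was largely fixed by that setting.

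**Figure D1:**
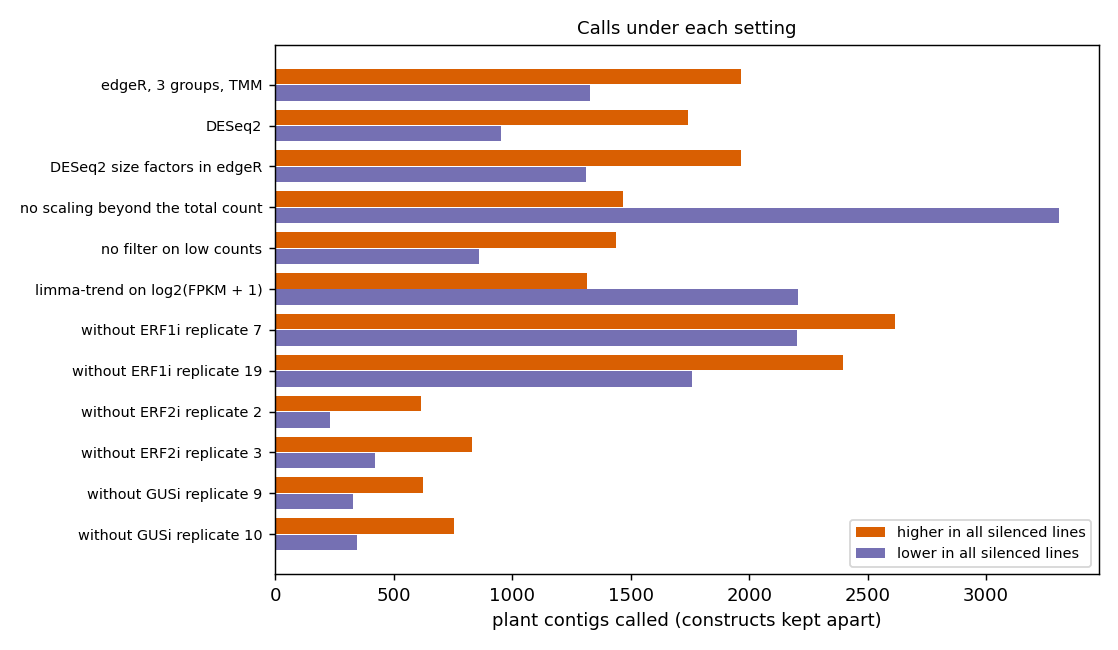
Number of plant contigs called with all silenced lines beyond all GUSi lines (horizontal axis) under each setting of the fit with the constructs kept apart; upper bars are higher and lower bars are lower contigs. Counts fell most without an ERF2i or a GUSi library, and lower calls outnumbered higher ones without scaling (1468 higher, 3309 lower).

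Among contigs of known kind with at least 5 CPM, the 15 with the widest gap above GUSi were of mixed kinds. The gap is the log2 distance from the nearest silenced line to the nearest GUSi line. A monoglyceride lipase-like contig (c23147_g1_i2), for an enzyme that releases fatty acids from glycerol, had 14.3, 15.6, 10.8 and 9.90 CPM in the silenced lines, against 1.15 and 0.571 CPM in GUSi, and rose by a log2 of 3.84 (SE 0.25, adjusted p = 0.00206). Every silenced line was far above both GUSi lines, and ERF2i and ERF1i did not differ beyond their spread (adjusted p = 0.106). A UDP-glycosyltransferase 74B1-like contig (c25056_g1_i2), of the family that adds sugars to small molecules, had 17.1, 15.4, 21.7 and 26.1 CPM in the silenced lines, against 2.81 and 3.36 CPM in GUSi, a difference of 2.67 (SE 0.16, adjusted p = 0.00206). A contig described as dentin sialophospho isoform 3 (c31894_g2_i5), whose best hit is an uncharacterized plant protein, had 17.5, 34.8, 73.1 and 75.7 CPM in the silenced lines, against 2.89 and 1.43 CPM in GUSi, the largest log2 difference of the 15 at 4.35 (SE 0.39, adjusted p = 0.00263).

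MLO proteins, membrane proteins known in barley for susceptibility to powdery mildew, appeared in contigs of a pair of neighbouring assembly genes. The MLO-like protein 6 contig (c31473_g1_i3) had 35.6, 28.9, 29.1 and 30.2 CPM in the silenced lines, against 8.01 and 8.14 CPM in GUSi, and the MLO-like protein 12 contig (c31473_g2_i1) had 10.8, 9.81, 10.3 and 7.45 CPM in the silenced lines, against 2.02 and 2.00 CPM in GUSi. They rose by 1.94 (SE 0.13, adjusted p = 0.00206) for the first and 2.25 (SE 0.21, adjusted p = 0.00266) for the second, with nearly the same level in each silenced line. A plasma membrane calcium-transporting ATPase contig (c28271_g1_i1), for a pump that clears calcium from the cytosol, had 17.6, 15.6, 15.9 and 21.2 CPM in the silenced lines, against 3.68 and 4.50 CPM in GUSi and rose by 2.10. Asparagine synthetase (c25330_g2_i1), which stores nitrogen as asparagine, had 58.3, 54.0, 99.8 and 83.8 CPM in the silenced lines, against 19.6 and 8.14 CPM in GUSi, with ERF2i above ERF1i and GUSi-10 lowest.

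The other 8 leading contigs rose by log2 values of 1.80 to 3.34. They were described as a haloacid dehalogenase-like hydrolase with a trehalose 6-phosphate phosphatase as best hit (c30381_g1_i3, 2.81), a 2-oxoglutarate-dependent dioxygenase (c32184_g1_i2, 3.34), a basic 7S globulin-like protein (c28381_g1_i1, 2.72), a glutaredoxin-like protein of redox control (c515_g1_i1, 2.52), a serine/threonine kinase (c32674_g2_i5, 1.80), amino acid permease 2 (c24674_g1_i1, 3.31), an octicosapeptide/Phox/Bem1p protein (c32558_g1_i1, 2.06) and a UPF0496 protein (c29877_g1_i1, 2.28). The dioxygenase and the permease lost their call without either ERF2i or either GUSi library, the UPF0496 protein without either ERF2i library, and asparagine synthetase without the library labelled ERF2i-2.

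The 15 with the widest gap below GUSi were also mixed, with 2 auxin-induced proteins and 2 wall proteins among them. A CENTRORADIALIS-like contig (c8984_g1_i1), of a family that keeps shoot tips from flowering in snapdragon, had 1.91, 2.23, 5.03 and 3.21 CPM in the silenced lines, against 18.1 and 26.6 CPM in GUSi, and fell on the log2 scale, with a difference of -2.93 (SE 0.22, adjusted p = 0.0023). An XRI1-like contig (c18340_g1_i1), named for an X-ray-induced gene of *Arabidopsis*, had 2.76, 2.31, 2.09 and 2.26 CPM in the silenced lines, against 11.4 and 10.6 CPM in GUSi, and fell by 2.22 (SE 0.15, adjusted p = 0.00212). The 4 silenced lines lay close together for XRI1 and spread further for CENTRORADIALIS, and in neither case did they come near GUSi. Galactomannan galactosyltransferase (c24701_g1_i1), which decorates a hemicellulose, had 9.57, 8.93, 2.94 and 4.53 CPM in the silenced lines, against 28.4 and 30.4 CPM in GUSi, and ERF2i minus ERF1i was -1.31 (SE 0.20, adjusted p = 0.00738).

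Auxin-induced 10A5-like proteins belong to the SAUR family, whose transcripts respond early to auxin in soybean. Contig c40345_g1_i1 had 28.0, 32.3, 28.7 and 35.6 CPM in the silenced lines, against 88.6 and 87.5 CPM in GUSi, and contig c25636_g1_i1 had 2.22, 2.63, 3.32 and 4.71 CPM in the silenced lines, against 9.81 and 10.1 CPM in GUSi. Both fell, by 1.50 (SE 0.11, adjusted p = 0.0023) for the first and 1.67 (SE 0.18, adjusted p = 0.00368) for the second. Of the T-DNA auxin enzyme indole acetamide hydrolase, contig c23136_g1_i1 had 0, 0, 125 and 65 counts in the silenced lines, against 131 and 121 counts in GUSi, so it was missing in ERF1i alone, and its part in these falls was not tested. Pectate lyase (c2233_g1_i1), which cuts pectin in the wall, had 21.1, 29.5, 14.9 and 13.6 CPM in the silenced lines, against 59.6 and 165 CPM in GUSi, and beta-expansin 3 (c20396_g1_i1), which loosens walls, had 10.5, 7.97, 4.18 and 5.37 CPM in the silenced lines, against 21.1 and 27.3 CPM in GUSi. Pectate lyase differed widely between the GUSi lines themselves and lost its call without either ERF2i library.

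The other 8 leading contigs fell by log2 values of 1.24 to 2.02. They were a CDC7-like kinase (c34832_g1_i1, 1.63), a BTB/POZ protein (c25168_g1_i1, 1.60), a TFIID subunit of the basal transcription machinery (c29453_g1_i3, 1.74), an RRP36-like protein of ribosomal RNA processing (c26300_g1_i1, 1.42), a late embryogenesis abundant hydroxyproline-rich protein (c33655_g1_i4, 1.51), a glutamine dumper 3-like protein of amino acid export (c1095_g1_i1, 1.49), an isopiperitenol/carveol dehydrogenase-like enzyme of the kind that oxidises monoterpene alcohols in mint (c30873_g1_i1, 2.02) and a CCR4-like receptor kinase (c20496_g1_i1, 1.24). The 30 leading contigs were picked for a wide gap in these same 6 libraries. Whether they keep their call with 1 library left out is thus largely fixed by that choice and is no separate sign of stability.

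**Figure D2:**
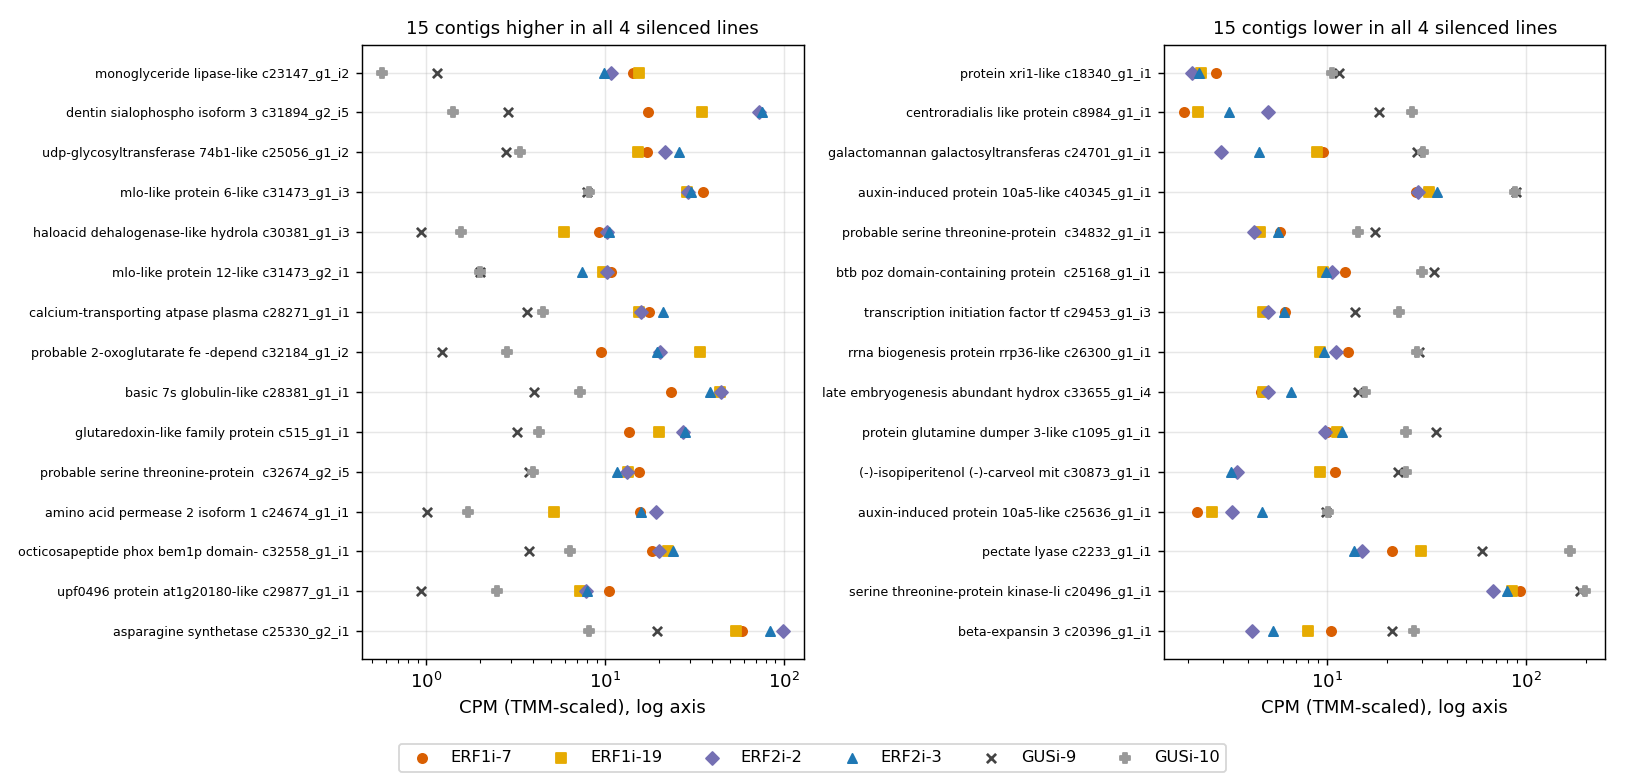
CPM of each library (horizontal log axis) for the 15 higher (left) and 15 lower (right) contigs with the widest gap; coloured symbols are the 4 silenced lines and grey symbols the 2 GUSi lines, 1 point per library with no error bar. That all coloured points lie on 1 side of both grey points is fixed by the choice of contigs, and the distance varies, for example 9.90 to 15.6 CPM against 0.571 and 1.15 CPM for the monoglyceride lipase-like contig (c23147_g1_i2).

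The shared changes were of unequal size in the constructs. Over the 1964 rises, the median log2 distance from the GUSi mean was 0.729 in ERF1i-7, 0.754 in ERF1i-19, 1.28 in the library labelled ERF2i-2 and 1.21 in that labelled ERF2i-3, and over the 1327 falls it was -0.528, -0.627, -0.975 and -0.918. ERF2i and ERF1i, whose contrast holds no GUSi library, differed at an adjusted p under 0.05 in 6526 of all plant contigs (19.6%), in 825 of the rises (42%) and in 449 of the falls (33.8%). The rises and falls were picked with the same fit and lines, mostly through ERF2i. Their median levels, 20.1 and 14.5 CPM, were above the 8 CPM of all contigs. The larger shares among them are thus partly set by that choice. ERF2i lay further from GUSi in 771 of those 825 rises and 407 of those 449 falls, and ERF1i lay further in 54 and 42. An ERF1i line was the nearest to GUSi in 1613 of 1964 rises. Against GUSi on its own, ERF2i had 4387 plant contigs higher (13.2%) and 3289 lower (9.89%), and ERF1i had 884 higher (2.66%) and 461 lower (1.39%), with the same GUSi libraries in both comparisons. Of the shared calls, 569 rises and 233 falls were called in each construct on its own, 1806 and 1180 in ERF2i, and 666 and 295 in ERF1i.

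**Figure D3:**
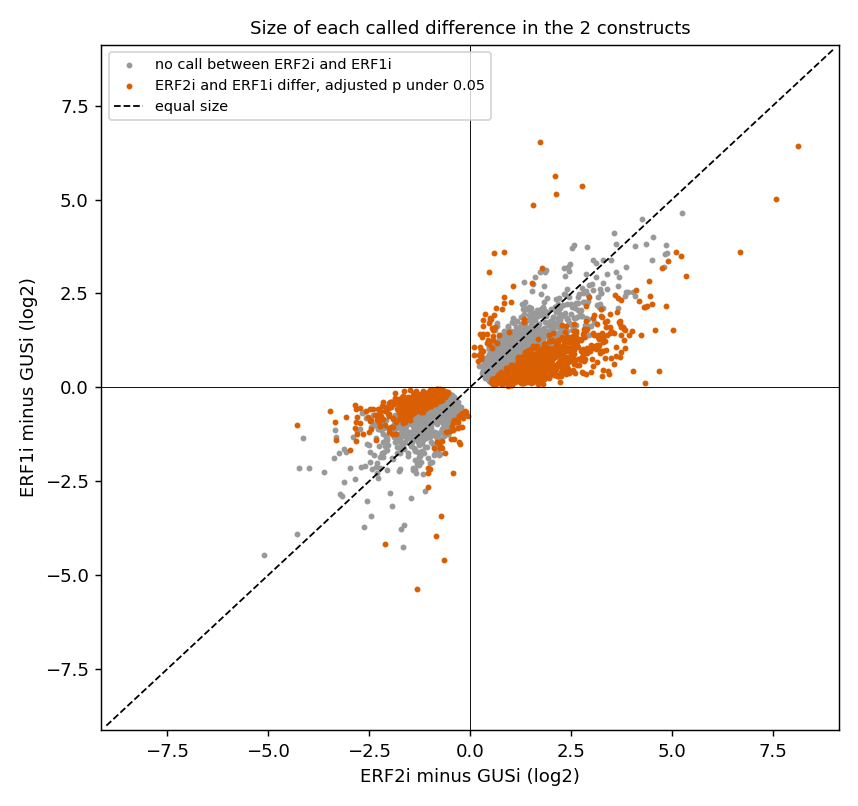
Log2 difference from GUSi in ERF2i (horizontal) and in ERF1i (vertical) for each of the 1964 higher and 1327 lower called contigs; each point is a contig, orange where ERF2i and ERF1i differ at an adjusted p under 0.05, and the dashed line marks equal size. The signs are fixed by the choice of members; most orange points lie on the ERF2i side of the dashed line.

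Gene lists drawn from the deposited descriptions were then read against the background of 5.9% rises and 3.99% falls, with a median log2 difference of -0.01 over all contigs. Contigs grouped into 1 assembly gene draw on shared reads and are not independent, and the range in brackets after a count is that over the 6 fits with 1 library left out. A list median averages the constructs, whose own medians differed in sign in some lists. Without scaling beyond the total count, 1468 plant contigs rose and 3309 fell over all those tested. A surplus of falls in that setting is thus not particular to a list. In that setting, MYB factors had 1 rise and 18 falls, and auxin genes 5 and 26. Cell division and histone genes then had 3 and 19, and sugar transporters and aquaporins 1 and 10. Genes of low oxygen and fermentation, which let roots make ATP without respiration, leaned higher: 10 of 76 tested contigs rose (4 to 20 with 1 library left out) and 0 fell (0 to 4), with a median log2 difference of 0.18, though 8 rose and 8 fell without scaling beyond the total count. Sucrose synthase (c26218_g1_i1), which feeds sucrose into glycolysis, had 1629, 2004, 6733 and 6578 CPM in the silenced lines, against 1163 and 1059 CPM in GUSi. Pyruvate decarboxylase (c25995_g1_i1), the entry to ethanol fermentation, had 1065, 1351, 4735 and 5335 CPM in the silenced lines, against 831 and 770.1 CPM in GUSi. In both, the ERF1i lines were slightly above GUSi and the ERF2i lines several-fold above, and ERF2i exceeded ERF1i by 1.87 (SE 0.17, adjusted p = 0.00128) for the first and 2.06 (SE 0.18, adjusted p = 0.00119) for the second. An alcohol dehydrogenase-like contig (c24367_g1_i3) rose by 1.22, and the list summed to 7130 to 32300 CPM in the 4 silenced lines, against 5790 to 6530 CPM in GUSi. ERF1i on its own was not called against GUSi in any of these named contigs. Its adjusted p was 0.0637 for sucrose synthase, 0.108 for pyruvate decarboxylase and 0.0758 for the alcohol dehydrogenase.

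Of glycolytic enzymes, 8 of 76 tested contigs rose (6 to 11 with 1 library left out) and 1 fell (0 to 2), with a median log2 difference of 0.04; 8 rose and 8 fell without scaling beyond the total count. Hexokinase 6 (c31223_g1_i2), the first step of sugar use, had 24.0, 26.7, 29.4 and 25.4 CPM in the silenced lines, against 10.9 and 8.28 CPM in GUSi, alike in both constructs. A pair of phosphofructokinase contigs of 1 cluster, c30065_g1_i1 and c30065_g2_i3, were instead mainly an ERF2i change: the first had 22.9, 39.4, 202 and 263 CPM in the silenced lines, against 18.3 and 16.9 CPM in GUSi. ERF2i exceeded ERF1i by 2.90 (SE 0.26, adjusted p = 0.00132) in the first and 2.81 (SE 0.18, adjusted p = 0.000607) in the second. ERF1i on its own was not called against GUSi in either, at an adjusted p of 0.134 and 0.230.

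Heat shock proteins are chaperones that hold unfolded proteins, and their factors switch them on. In this list 19 of 207 tested contigs rose (11 to 28 with 1 library left out) and 3 fell (0 to 8), with a median log2 difference of 0.03, while 14 rose and 21 fell without scaling beyond the total count, so its direction depended on scaling. Heat shock protein 70 (c47411_g1_i1) had 906, 798, 2914 and 2659 CPM in the silenced lines, against 493 and 504 CPM in GUSi, and differed between the constructs by 1.71 (SE 0.14, adjusted p = 0.00117). A DnaJ-domain contig (c27355_g3_i2) rose by 1.61 (SE 0.17, adjusted p = 0.0035) and a heat shock factor (c24037_g1_i2) by 1.21 (SE 0.14, adjusted p = 0.0045). The summed list stood at 13700 to 29700 CPM in the 4 silenced lines, against 12800 to 13900 CPM in GUSi, and these ranges overlapped.

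Jasmonate genes moved upward in part. Of the jasmonic acid biosynthesis contigs, 4 of 16 tested contigs rose (1 to 5 with 1 library left out) and 0 fell (0 to 1), with a median log2 difference of 0.14, though 2 rose and 2 fell without scaling beyond the total count. These were lipoxygenase 2 (c30417_g1_i1), which starts the pathway, with 1284, 788, 1375 and 1298 CPM in the silenced lines, against 504 and 680.4 CPM in GUSi, allene oxide cyclase (c24717_g1_i1), with 357, 214, 332 and 340.3 CPM in the silenced lines, against 145 and 191 CPM in GUSi, 12-oxophytodienoate reductase 3 (c5147_g1_i1), with a log2 difference of 0.49 (SE 0.12, adjusted p = 0.0498), and peroxisomal acyl-CoA oxidase 1A (c41885_g1_i1), with 1.19 (SE 0.13, adjusted p = 0.00391). In lipoxygenase 2 and allene oxide cyclase ERF1i-19 lay well below the other silenced lines and close to GUSi. Among JAZ and TIFY repressors, which jasmonate removes to free MYC factors, 1 of 12 tested contigs rose (0 to 3 with 1 library left out) and 0 fell (0 to 0), with a median log2 difference of 0.23, and the riser was JAZ1 (c25603_g2_i1) with 989.5, 695, 1006 and 936 CPM in the silenced lines, against 448 and 505 CPM in GUSi.

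Contigs with the GO term response to wounding, a term picked after the counts of 120 terms were seen, had 21 of 102 contigs higher (11 to 24 with 1 library left out), from 16 assembly genes, and 6 lower (0 to 12), but 15 and 15 without scaling. A MAP kinase contig (c23361_g1_i3), chosen after its values were seen, had 900, 681, 737 and 766 counts in the silenced lines, against 287 and 345 counts in GUSi, and rose by 1.55 (SE 0.14, adjusted p = 0.00262). The largest mean difference in the term, 3.21 (SE 0.33, adjusted p = 0.00328) in a CYP94A1-like contig (c42193_g1_i1), was mainly one of ERF1i, with 129, 170, 12 and 13 counts in the silenced lines, against 5 and 6 counts in GUSi.

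Transcription factor families leaned in different directions. Among bHLH and MYC factors, 6 of 133 tested contigs rose (1 to 8 with 1 library left out) and 23 fell (5 to 34), with a median log2 difference of -0.18, and 4 rose and 33 fell without scaling beyond the total count. The falls came from 15 assembly genes. bHLH30-like (c11792_g1_i1) had 24.3, 20.9, 23.5 and 24.5 CPM in the silenced lines, against 35.4 and 40.6 CPM in GUSi. Contigs called MYC2b (c33349_g2_i1 and c33349_g3_i1), of the jasmonate-responsive MYC2 kind and named after their values were seen, fell by 0.45 and 0.37, whereas MYC5 (c10432_g1_i1) and bHLH47-like (c27605_g1_i1) rose by 1.06 and 1.24. The family of the targets themselves, AP2/ERF, fell more often than it rose: 5 of 88 tested contigs rose (1 to 15 with 1 library left out) and 11 fell (3 to 20), with a median log2 difference of -0.16, and 5 rose and 21 fell without scaling beyond the total count. An ERF1-like contig (c23187_g1_i1) had 287, 289.6, 285 and 289.9 CPM in the silenced lines, against 419 and 422 CPM in GUSi, the silenced lines lying close together below both GUSi lines. An ethylene-responsive factor (c45352_g1_i1) rose by 1.11 and an ERF098-like contig (c23622_g1_i1) by 0.98.

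Homeobox factors also leaned lower: 4 of 134 tested contigs rose (1 to 11 with 1 library left out) and 12 fell (3 to 17), with a median log2 difference of -0.05, and 3 rose and 25 fell without scaling beyond the total count. ATHB-6-like (c21347_g1_i1), a leucine zipper protein tied to abscisic acid in *Arabidopsis*, had 255, 268, 95.2 and 119 CPM in the silenced lines, against 502 and 442 CPM in GUSi. A POX-family contig (c29047_g2_i1) fell by 0.96 and a homeobox 2-like contig (c25207_g1_i1) by 1.83. Of the MYB contigs named next, c23200_g1_i1 and c5067_g1_i2 were mainly ERF2i changes, at a log2 of -1.30 and -1.27 against GUSi. In ERF1i they stood at -0.56 (adjusted p = 0.079) and -0.32 (adjusted p = 0.40), so ERF1i on its own was not called. For MYB factors, 5 of 120 tested contigs rose (0 to 8 with 1 library left out) and 8 fell (0 to 17), with a median log2 difference of 0.02, with the R2R3-MYB contig c33249_g3_i2 at -1.14, a MYB-like regulator (c23200_g1_i1) at -0.93 and MYBPA1 (c5067_g1_i2) at -0.79.

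WRKY and NAC factors, many of which act in defence and stress, had more rises than falls. Of the WRKY list, 8 of 55 tested contigs rose (2 to 10 with 1 library left out) and 3 fell (0 to 6), with a median log2 difference of 0.02, but 6 rose and 8 fell without scaling beyond the total count. WRKY22-like (c27360_g1_i1) had 23.0, 26.3, 43.8 and 36.1 CPM in the silenced lines, against 8.95 and 13.1 CPM in GUSi; a further WRKY contig (c32720_g7_i1) rose by 1.13 and WRKY1b (c17606_g1_i1) by 0.69. Of the NAC list, 6 of 50 tested contigs rose (3 to 8 with 1 library left out) and 2 fell (0 to 3), with a median log2 difference of -0.08, and 4 rose and 4 fell without scaling beyond the total count. Membrane-bound NAC factor 1 (c268_g1_i1), of a group released from membranes on stress, had 492, 393, 642 and 596 CPM in the silenced lines, against 141 and 203 CPM in GUSi. NAC72-like (c16834_g1_i1) rose by 1.40 and a NAM-like contig (c27672_g1_i1) by 1.01. The WRKY list median was -0.10 in ERF1i and 0.13 in ERF2i, and the NAC list median was -0.09 and 0.32, each against GUSi. 

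**Figure D4:**
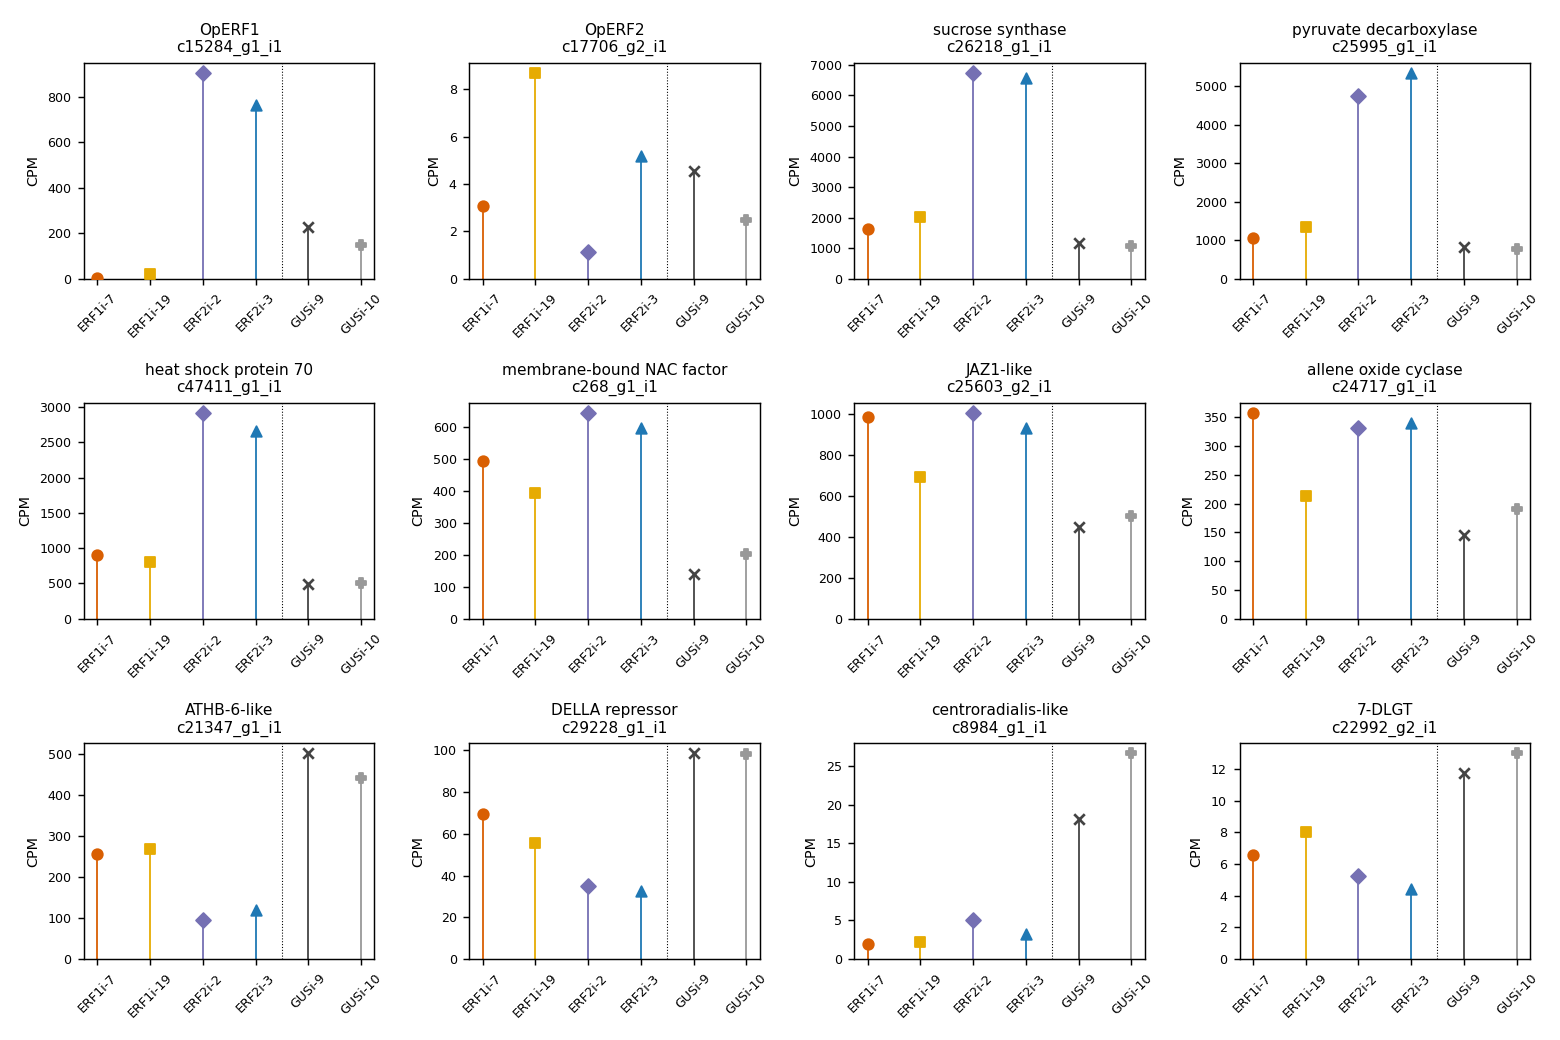
CPM (vertical axis from 0) of 12 contigs in each of the 6 libraries, silenced lines left of the dotted line and GUSi lines right of it; each point is 1 library, with no error bar. The targets do not move together (*OpERF1* 4.06 and 22.0 CPM in ERF1i, 905 and 766 CPM in ERF2i, 228 and 150 CPM in GUSi), while the other 10 contigs lie on 1 side of GUSi in all 4 silenced lines, as the choice of contigs requires. The panel 7-DLGT is the 7-deoxyloganetic acid glucosyltransferase contig.

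ABC and MATE transporters carry small molecules across membranes, and rises outnumbered falls among them with TMM and without scaling: 37 of 290 tested contigs rose (17 to 44 with 1 library left out) and 9 fell (2 to 21), with a median log2 difference of 0.07, and 29 rose and 17 fell without scaling beyond the total count, with a median of -0.08. The rises came from 24 assembly genes. Pleiotropic drug resistance protein 1-like (c23677_g2_i1) had 237, 378, 729.6 and 664 CPM in the silenced lines, against 118 and 106 CPM in GUSi, PDR3-like (c33584_g2_i2) had 72.6, 57.5, 72.4 and 76.3 CPM in the silenced lines, against 27.8 and 29.3 CPM in GUSi, and an ABC transporter of subfamily C (c31632_g1_i1) rose by 1.58. The list summed to 8610 to 13400 CPM in the 4 silenced lines, against 6980 to 7110 CPM in GUSi, with no overlap. The list median was 0.17 in ERF1i and -0.02 in ERF2i, each against GUSi, so the sums do not describe the typical member. UDP-glycosyltransferases had shares above the background on both sides: 19 of 140 tested contigs rose (11 to 26 with 1 library left out) and 16 fell (7 to 24), with a median log2 difference of -0.06, although 17 rose and 21 fell without scaling beyond the total count. A 73C3-like contig (c23123_g1_i2) had 17.1, 28.6, 100.3 and 66.1 CPM in the silenced lines, against 9.31 and 5.78 CPM in GUSi and a 92A1-like contig (c33102_g1_i1) had 7.89, 4.86, 1.61 and 1.79 CPM in the silenced lines, against 18.8 and 15.1 CPM in GUSi, so the enzymes of 1 family moved in opposite directions. Glutathione S-transferases, which tag toxic compounds, had rises and no falls with TMM: 5 of 47 tested contigs rose (3 to 6 with 1 library left out) and 0 fell (0 to 4), with a median log2 difference of -0.15, but 5 rose and 5 fell without scaling beyond the total count. A GST30-family contig (c33421_g1_i1) had 226, 225, 750.2 and 676 CPM in the silenced lines, against 137 and 128 CPM in GUSi, and a GST L3-like contig (c26995_g1_i1) rose by 0.97.

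Of cytochrome P450 enzymes, 17 of 237 tested contigs rose (7 to 29 with 1 library left out) and 11 fell (1 to 33), with a median log2 difference of -0.11, and 14 rose and 22 fell without scaling beyond the total count. An isoflavone 2'-hydroxylase of the CYP81D type (c33473_g1_i1) had 242, 177, 543 and 523 CPM in the silenced lines, against 69.3 and 80.3 CPM in GUSi. A fatty acid hydroxylase (c20208_g1_i1) rose by 2.01 and a CYP704C1-like contig (c29626_g2_i1) by 1.06. The P450 list median was 0.1 in ERF1i and -0.37 in ERF2i, each against GUSi. Of 2-oxoglutarate-dependent dioxygenases, 13 of 101 tested contigs rose (5 to 14 with 1 library left out) and 8 fell (2 to 22), with a median log2 difference of -0.14, and 13 rose and 16 fell without scaling beyond the total count. An adventitious rooting related oxygenase (c32148_g1_i1) rose by 1.32, and an ACC oxidase homolog (c29135_g1_i1) fell by 1.64. No class III peroxidase rose: 0 of 61 tested contigs rose (0 to 1 with 1 library left out) and 5 fell (0 to 10), with a median log2 difference of -0.25, and 0 rose and 7 fell without scaling beyond the total count. Peroxidase 10-like (c17283_g1_i1) had 34.1, 33.5, 23.3 and 13.5 CPM in the silenced lines, against 56.2 and 61.0 CPM in GUSi, while peroxidase 64 (c31217_g1_i3) and a secretory peroxidase (c3794_g1_i1) fell by 0.86 and 0.69. Peroxidase 64 was mainly an ERF1i change, at a log2 of -1.45 against GUSi, with -0.27 in ERF2i (adjusted p = 0.268). The peroxidase list median was 0.12 in ERF1i and -0.70 in ERF2i, each against GUSi.

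The alkaloid supply pathways gave few calls. Of the methylerythritol phosphate (MEP) pathway, which makes terpene precursors in plastids, 0 of 12 tested contigs rose (0 to 0 with 1 library left out) and 0 fell (0 to 1), with a median log2 difference of -0.03. Of the secologanin-strictosidine pathway, which makes the precursor of camptothecin, 0 of 28 tested contigs rose (0 to 0 with 1 library left out) and 2 fell (0 to 3), with a median log2 difference of -0.13. Both falls were annotated as 7-deoxyloganetic acid glucosyltransferase, which adds glucose to an iridoid. The first (c22992_g2_i1) had 6.58, 8.05, 5.22 and 4.43 CPM in the silenced lines, against 11.8 and 13.0 CPM in GUSi, and the second (c22992_g3_i1) fell by 1.10 (SE 0.18, adjusted p = 0.0135). The list median was -0.46 in ERF2i and 0.11 in ERF1i, each against GUSi. Phenylpropanoid and lignin enzymes gave few calls: 2 of 85 tested contigs rose (2 to 3 with 1 library left out) and 4 fell (0 to 11), with a median log2 difference of -0.12. A 4-coumarate:CoA ligase-like contig (c22627_g1_i1) had 1048, 892, 1514 and 1340 CPM in the silenced lines, against 431 and 467 CPM in GUSi, cinnamyl alcohol dehydrogenase (c22710_g1_i1) rose by 1.28, and caffeic acid O-methyltransferase 1 (c33488_g6_i1) fell by 0.53. The phenylpropanoid list median was 0.12 in ERF1i and -0.49 in ERF2i, each against GUSi. In the flavonoid and anthocyanin list 5 of 109 tested contigs rose (2 to 9 with 1 library left out) and 5 fell (2 to 14), with a median log2 difference of -0.10. An anthocyanin acyltransferase-like contig (c8965_g1_i1) had 27.7, 29.3, 11.0 and 11.3 CPM in the silenced lines, against 64.5 and 57.6 CPM in GUSi, a MYC-like anthocyanin regulator (c29782_g2_i1) fell by 1.04 and a contig described as a flavonol enzyme (c21851_g1_i1) by 1.29.

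Contigs of the GO term ADP binding, which in this annotation holds NB-LRR disease resistance proteins, fell often. This term was also picked after its counts were seen. Of 191 contigs tested 31 fell (16.2%), from 21 assembly genes, and 2 rose, while 57 fell and 1 rose without scaling and 5 fell without the library labelled ERF2i-2, GUSi-9 or GUSi-10 (5 to 39 over the 6 libraries left out). The 31 falls were of modest size, with log2 differences between -1.47 and -0.44, and 14 were described as late blight resistance homologs, such as c18949_g1_i1 (R1B-16-like, -1.47 (SE 0.17, adjusted p = 0.00431)). Such genes often form families of close copies, whose reads RSEM divides by estimate, so single contigs are uncertain. Pathogenesis-related proteins and chitinases followed no single direction: 4 of 91 tested contigs rose (0 to 7 with 1 library left out) and 8 fell (1 to 12), with a median log2 difference of -0.06. Falls were 8.79% of that list and rises 4.4%, and 2 rose and 13 fell without scaling beyond the total count. Falls outnumbered rises in both settings, but without scaling they did so over all plant contigs as well (1468 higher and 3309 lower). A thaumatin-like contig (c31933_g1_i1) fell by 1.53, a second (c32173_g1_i1) rose by 1.09, and a glucan endo-beta-glucosidase 14-like contig (c36736_g1_i1) rose by 1.65. LEA, dehydrin and RD22-like proteins were likewise mixed: 3 of 47 tested contigs rose (0 to 4 with 1 library left out) and 4 fell (2 to 4), with a median log2 difference of 0.05. An LEA contig (c22633_g1_i1) rose by 1.52 and a hydroxyproline-rich one (c9177_g2_i1) fell by 0.79.

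Of the hormone lists below, cytokinin alone had a positive median, and medians ran from -0.28 for gibberellin to 0.05 for cytokinin. The 10 cytokinin rises came from 5 assembly genes. Of auxin genes, 6 of 135 tested contigs rose (2 to 8 with 1 library left out) and 8 fell (4 to 20), with a median log2 difference of -0.17, and besides the SAUR contigs above an auxin-induced PCNT115 contig (c17708_g1_i1) had 34.2, 33.0, 87.6 and 81.6 CPM in the silenced lines, against 19.3 and 16.6 CPM in GUSi. Of cytokinin genes, 10 of 61 tested contigs rose (0 to 14 with 1 library left out) and 6 fell (1 to 7), with a median log2 difference of 0.05, while 6 rose and 8 fell without scaling beyond the total count. The list takes in the clock protein PRR37-like (c29696_g1_i3), whose 4 contigs rose and which had 18.2, 19.5, 19.6 and 21.9 CPM in the silenced lines, against 12.4 and 11.7 CPM in GUSi. A zeatin O-glucosyltransferase-like contig (c29731_g1_i2) fell by 1.18. Of abscisic acid genes, 2 of 27 tested contigs rose (0 to 3 with 1 library left out) and 4 fell (0 to 4), with a median log2 difference of -0.12. The receptor PYR1-like (c26108_g1_i1) and 9-cis-epoxycarotenoid dioxygenase (c5072_g1_i1), the committed step of its synthesis, fell by 0.74 and 1.14, and an ABI5-like contig (c30157_g1_i1) rose by 1.58. Of gibberellin genes, 2 of 39 tested contigs rose (1 to 4 with 1 library left out) and 4 fell (1 to 14), with a median log2 difference of -0.28. A DELLA repressor (c29228_g1_i1), which gibberellin removes, had 69.4, 55.4, 34.9 and 32.4 CPM in the silenced lines, against 98.6 and 98.5 CPM in GUSi, a second DELLA contig (c33137_g1_i2) fell by 0.73, and a gibberellin-regulated protein (c444_g1_i1) rose by 0.95. Of ethylene synthesis and perception genes, 4 of 33 tested contigs rose (0 to 4 with 1 library left out) and 2 fell (0 to 4), with a median log2 difference of -0.16, and 3 rose and 4 fell without scaling beyond the total count. ACC synthase (c29720_g1_i1), which makes the precursor of ethylene, had 18.4, 13.7, 24.4 and 21.6 CPM in the silenced lines, against 6.06 and 9.78 CPM in GUSi, while ethylene receptor 2-like (c28215_g1_i1) and EIN3-binding F-box protein 1 (c21354_g1_i1) rose by 0.68 and 0.98.

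Cell wall enzymes had equal counts in both directions: 18 of 207 tested contigs rose (5 to 27 with 1 library left out) and 18 fell (4 to 30), with a median log2 difference of -0.02, and 14 rose and 32 fell without scaling beyond the total count. Polygalacturonase inhibitors, which block pectin-cutting enzymes of pathogens, rose in c17988_g1_i1, with 6.51, 4.78, 20.5 and 14.6 CPM in the silenced lines, against 1.95 and 1.36 CPM in GUSi, and in c36555_g1_i1, by 1.49 (SE 0.10, adjusted p = 0.00206). A cellulose synthase family contig (c33232_g14_i1) rose by 1.35. The cell wall list median was 0.12 in ERF1i and -0.27 in ERF2i, each against GUSi. Of sugar transporters and aquaporins, 2 of 75 tested contigs rose (0 to 3 with 1 library left out) and 1 fell (0 to 8), with a median log2 difference of -0.10. A tonoplast water channel (c25659_g1_i1) and a sucrose transporter (c29723_g1_i1) rose by 1.01 and 0.65, and a hexose transporter (c28499_g1_i1) fell by 0.67. Of nitrate and ammonium genes, 5 of 73 tested contigs rose (0 to 11 with 1 library left out) and 3 fell (0 to 9), with a median log2 difference of -0.04, with rises of a nitrate transporter-like contig (c25954_g1_i1, 0.90) and ammonium transporter 2-like (c27746_g1_i3, 0.97) and a lower nitrate excretion transporter 1-like contig (c5122_g1_i1, -1.09). Of phosphate starvation genes, 6 of 55 tested contigs rose (0 to 8 with 1 library left out) and 5 fell (0 to 9), with a median log2 difference of -0.09. A phosphate transporter (c24093_g1_i1) had 46.9, 70.1, 57.0 and 52.9 CPM in the silenced lines, against 21.7 and 28.4 CPM in GUSi, its neighbour c24093_g2_i2 rose by 1.07, and a PHO1 homolog 3-like contig (c30828_g1_i2) rose by 0.59.

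RNA silencing machinery, which makes and uses small RNAs, had 23.2, 22.3, 27.0 and 25.0 CPM in the silenced lines, against 18.0 and 16.1 CPM in GUSi for argonaute 16-like (c33237_g1_i4). In that list 7 of 66 tested contigs rose (0 to 13 with 1 library left out) and 1 fell (0 to 2), with a median log2 difference of 0.17, and 3 rose and 4 fell without scaling beyond the total count. Double-stranded RNA-binding protein 2-like (c29031_g1_i1) rose by 0.39, and RNA-dependent RNA polymerase 1 (c29156_g4_i1) fell by 0.45. Few cytosolic ribosomal proteins were called: 2 of 163 tested contigs rose (1 to 3 with 1 library left out) and 1 fell (0 to 5), with a median log2 difference of -0.08, although 1 rose and 18 fell without scaling beyond the total count. A 60S contig (c32349_g2_i1) had 87.0, 100.4, 69.8 and 64.2 CPM in the silenced lines, against 25.5 and 27.6 CPM in GUSi, apart from the rest of the list, while an L27a-3-like contig (c33405_g1_i6) rose by 0.34 and another 60S contig (c26672_g1_i1) fell by 1.04. Of cell division and histone genes, 5 of 137 tested contigs rose (1 to 12 with 1 library left out) and 5 fell (0 to 10), with a median log2 difference of -0.03. A histone H3K4 methyltransferase SET7 contig (c28345_g3_i1) and a CDK inhibitor 3-like contig (c22482_g1_i2) fell by 0.71 and 0.58, and a cyclin family contig (c33289_g2_i2) rose by 0.72.

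Markers of other tissue were read beside these results. Photosynthesis genes, which mark green tissue, were low throughout, at a sum of 131 to 277 CPM in the 4 silenced lines, against 126 to 140.0 CPM in GUSi. These ranges overlapped, with 226 and 277 CPM in ERF1i and 131 and 178 CPM in ERF2i. The list median was 1.11 in ERF1i and 0.15 in ERF2i, each against GUSi. In this list 7 of 42 tested contigs rose (1 to 5 with 1 library left out) and 1 fell (0 to 1), with a median log2 difference of 0.52, and 7 rose and 2 fell without scaling beyond the total count, all 7 rises being chlorophyll a/b-binding proteins. The named member, chlorophyll a/b-binding protein 2 (c33346_g1_i1), had 10.8, 9.97, 6.26 and 11.5 CPM in the silenced lines, against 2.02 and 3.86 CPM in GUSi. Their part in the other results was not tested. Suberin, cutin and Casparian strip genes, which mark the root's endodermis and periderm, were present in every line and summed to 731 to 924 CPM in the 4 silenced lines, against 787 to 971 CPM in GUSi. Of these, 1 of 35 tested contigs rose (0 to 2 with 1 library left out) and 2 fell (0 to 3), with a median log2 difference of 0.02. Fatty acyl-CoA reductase 3-like (c28904_g1_i2) fell by 0.60 and glycerol-3-phosphate acyltransferase (c18303_g1_i1) rose by 0.57. In these bulk samples, fewer cells of a type and less RNA per cell cannot be told apart. T-DNA contigs could not be called, since non-plant contigs were left out of the calls. Of the 10 tested, only rolB (c30113_g1_i1) lay on 1 side of GUSi in all 4 silenced lines. It was below both GUSi lines, with a log2 difference of -0.68 (adjusted p = 0.0553).

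**Figure D5:**
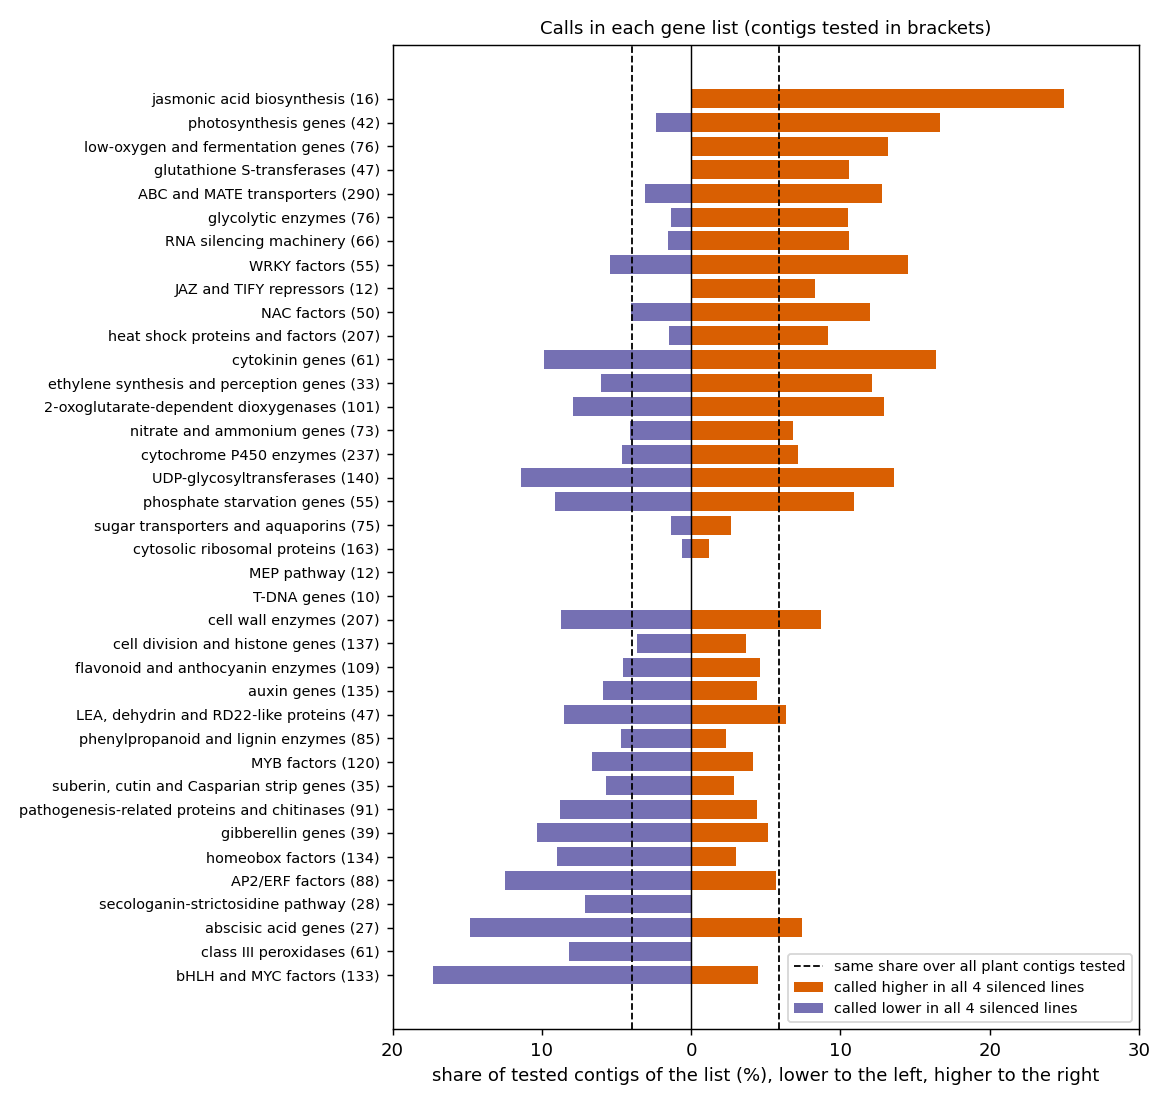
Share of the tested contigs of each list (number in brackets) that were called higher (right of 0) or lower (left of 0) in all 4 silenced lines, constructs kept apart, in percent of the list; dashed lines mark the shares over all plant contigs, 5.9% higher and 3.99% lower. Bars carry no error, and contigs of 1 assembly gene share reads. The T-DNA list has no bar because its contigs were left out of the calls. Jasmonic acid biosynthesis (16 contigs) has the largest higher share at 25% and bHLH and MYC factors the largest lower share at 17.3%.

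Members without a description were many: 401 of the 1964 rises and 157 of the 1327 falls had no annotation. The rises came from 1500 assembly genes and the falls from 1185. The median gap was 0.425 log2 for rises and 0.314 for falls, and a gap of at least 1 was found in 225 rises and 56 falls. Of the contigs beyond both GUSi lines, 2786 higher and 3191 lower ones were not called, and 1555 and 1739 had a gap under 0.1, a distance below the median difference of 0.19 between the GUSi lines over all contigs.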

How the data were processed

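Strand-specific libraries of 6 HR lines had been sequenced as paired ends on an Illumina HiSeq 2000 instrument. The authors mapped the filtered reads with Bowtie2 2.0 on contigs assembled *de novo* and deposited, per contig and library, an RSEM expected count (read pairs assigned), an FPKM (fragments scaled to contig length and library total) and a TPM (the transcript share of the library), which was not used here. For RSEM, a version and the handling of strand were not given in the sources used here, and submitters' processing notes also name DESeq. A deposited annotation table repeats the FPKM. Its columns equalled the library tables, with the ERF2i clone numbers exchanged.

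Expected counts were rounded (1 value was not whole) and tested with edgeR 4.0.16 in R 4.3.3 (quasi-likelihood test, TMM, minimum count 10, minimum total 15), which left 33315 contigs, 44 of them non-plant, with Benjamini-Hochberg adjustment over all. The planned fit set 4 silenced lines against 2 GUSi lines; a fit with 3 groups, listed with it as an alternative, is used for naming because the first called nothing, a choice made after its result was seen. CPM are TMM-scaled, and the gap uses log2 CPM with a prior count of 2. The settings varied were the tool (DESeq2 1.42.0), the scaling (DESeq2 size factors or none), the filter (none, or a mean FPKM of at least 2), limma-trend (limma 3.58.1) on log2(FPKM + 1), assembly genes, a log2 limit of 1 and leaving out libraries in turn. Their use on the 3-group fit was decided once results were known. The test was also run on simulated data, and the outcome is not reported here. Figures used Python 3.11.15 with pandas 2.3.3 and matplotlib 3.10.9.

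Named were *OpERF1*, *OpERF2*, the 15 higher and 15 lower called contigs with the widest gap, the 3 widest of each list and called contigs of the MEP, secologanin-strictosidine and jasmonic acid lists, all plant contigs of known kind with a mean of at least 5 CPM and 1 per assembly gene. Others are said to be chosen after their values were seen. Pathway lists come from the contigs the study assigned, the rest from patterns on descriptions, 2 of them corrected and 1 narrowed after descriptions were read. Members and lists were chosen with earlier results of these data known. Each numbered line is a separate clone in the study's methods; p-values measure the spread between clones with 1 library each. No sequence of a contig was analysed here.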

Additional observations from a re-analysis of the deposited data

Results flagged for a closer look

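The ERF2i and ERF1i lines differed from each other in 53 of the 128 contigs named above, by edgeR's quasi-likelihood test of ERF2i minus ERF1i at an adjusted p under 0.05. This contrast holds no GUSi library, and its values are given here as log2 of ERF2i over ERF1i. *OpERF1* (c15284_g1_i1) stood at 6.01 (adjusted p = 0.00315), with both ERF2i lines above both ERF1i lines. Among the 33 shared rises concerned, 31 were further above GUSi in ERF2i, with adjusted p from 0.000607 to 0.0476. The widest were 6-phosphofructokinase 7-like (c30065_g1_i1, 2.90), 6-phosphofructokinase 3-like (c30065_g2_i3, 2.81), pyruvate decarboxylase protein (c25995_g1_i1, 2.06), sucrose synthase (c26218_g1_i1, 1.87), UDP-glycosyltransferase 73C3-like (c23123_g1_i2, 1.86), heat shock protein 70 (c47411_g1_i1, 1.71), glutathione S-transferase 30 protein (c33421_g1_i1, 1.66) and polygalacturonase inhibitor (c17988_g1_i1, 1.63). Next came a contig described as dentin sialophospho (c31894_g2_i5, 1.51), cytochrome P450-dependent fatty acid hydroxylase (c20208_g1_i1, 1.49), cinnamyl alcohol dehydrogenase (c22710_g1_i1, 1.45), abscisic acid-insensitive 5-like protein 5-like (c30157_g1_i1, 1.45), peroxisomal acyl-CoA oxidase 1A (c41885_g1_i1, 1.42), isoflavone 2′-hydroxylase (c33473_g1_i1, 1.35), auxin-induced protein PCNT115 (c17708_g1_i1, 1.33) and pleiotropic drug resistance protein 1-like (c23677_g2_i1, 1.18). Then followed DnaJ heat shock N-terminal domain-containing protein (c27355_g3_i2, 1.09), EIN3-binding F-box protein 1 (c21354_g1_i1, 1.04), ethylene-responsive transcription factor (c45352_g1_i1, 0.88), ethylene-responsive transcription factor ERF098-like (c23622_g1_i1, 0.82), alcohol dehydrogenase-like 3-like (c24367_g1_i3, 0.80), glutaredoxin-like protein (c515_g1_i1, 0.71), a WRKY contig (c32720_g7_i1, 0.71) and WRKY transcription factor 22-like (c27360_g1_i1, 0.70). Closer to ERF1i were glycerol-3-phosphate acyltransferase (c18303_g1_i1, 0.69), heat shock factor (c24037_g1_i2, 0.67), cyclin protein (c33289_g2_i2, 0.64), 4-coumarate:CoA ligase-like 10-like (c22627_g1_i1, 0.56), UDP-glycosyltransferase 74B1-like (c25056_g1_i2, 0.56), glutathione S-transferase L3-like (c26995_g1_i1, 0.49) and polygalacturonase inhibitor (c36555_g1_i1, 0.40). In 2 rises ERF1i was further from GUSi, sucrose transporter (c29723_g1_i1, -0.64) and 60S ribosomal protein (c32349_g2_i1, -0.48).

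Among the 19 shared falls concerned, 16 were further below GUSi in ERF2i, with adjusted p from 0.00119 to 0.0458. The widest were UDP-glycosyltransferase 92A1-like (c33102_g1_i1, -1.90), isopiperitenol/carveol dehydrogenase-like enzyme (c30873_g1_i1, -1.57), anthocyanin 5-aromatic acyltransferase-like (c8965_g1_i1, -1.35), galactomannan galactosyltransferase (c24701_g1_i1, -1.31), homeobox-leucine zipper protein ATHB-6-like (c21347_g1_i1, -1.29), ACC oxidase homolog (c29135_g1_i1, -1.20), 9-cis-epoxycarotenoid dioxygenase (c5072_g1_i1, -1.18) and beta-expansin 3 (c20396_g1_i1, -0.95). The others were MYBPA1 (c5067_g1_i2, -0.94), 60S ribosomal protein (c26672_g1_i1, -0.92), GA repressor DELLA (c29228_g1_i1, -0.89), peroxidase 10-like (c17283_g1_i1, -0.88), 7-deoxyloganetic acid UDP-glucosyltransferase-like protein (c22992_g3_i1, -0.88), nitrate excretion transporter 1-like (c5122_g1_i1, -0.78), MYB-like HTH transcriptional regulator (c23200_g1_i1, -0.74) and DELLA protein (c33137_g1_i2, -0.52). In 3 falls ERF1i was further below, peroxidase 64 (c31217_g1_i3, 1.18), abscisic acid receptor PYR1-like (c26108_g1_i1, 0.60) and RNA-dependent RNA polymerase 1 (c29156_g4_i1, 0.54).

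In 6 of the 128 contigs, 1 silenced line stood apart from the other 3, its gap to the nearest of them, as a share of the range of the 4 lines in log2 CPM, being above the 95% limit of Dixon's test. About 1 group in 20 passes that limit by chance where the 4 values come from 1 population. Here the lines carry 2 constructs and the contigs were chosen on these lines, so that rate does not hold. The line was ERF1i-19 in amino acid permease 2 (c24674_g1_i1, 0.84), homeobox protein 2-like (c25207_g1_i1, 0.979), fatty acyl-CoA reductase 3-like (c28904_g1_i2, 0.901), lipoxygenase 2 (c30417_g1_i1, 0.877) and allene oxide cyclase (c24717_g1_i1, 0.857). It was the library labelled ERF2i-2 in caffeic acid 3-O-methyltransferase 1 (c33488_g6_i1, 0.974).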

How the results depend on the processing

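With the 4 silenced lines as 1 side, edgeR kept 0 calls in both directions with DESeq2 size factors, no scaling, no filter on low counts, a mean FPKM of at least 2, limma-trend, counts summed over assembly genes and a log2 limit of 1 in absolute size. It gave 1964 higher and 1327 lower with 3 groups in the fit, 569 and 233 called in each construct on its own, and 0 to 109 higher and 0 to 21 lower with 1 library left out, the calls appearing without ERF1i-19; DESeq2 gave 950 and 327. With the constructs kept apart, falls were 3309 without scaling, 858 without the filter and 2207 with limma-trend, and an absolute log2 of at least 1 left 1057 rises and 435 falls. Leaving out 1 library gave 615 to 2615 rises and 233 to 2203 falls, and 553 to 1885 of the 1964 rises and 228 to 1281 of the 1327 falls were called again.

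The ERF2i minus ERF1i contrast gave 953 to 6723 contigs over the left-out libraries, lowest without the library labelled ERF2i-2 and 1788 without that labelled ERF2i-3. ERF1i against GUSi gave 24 to 1605 higher and 6 to 1146 lower, and with limma-trend 264 and 175. ERF2i against GUSi gave 1332 to 5269 higher and 413 to 4604 lower, with limma-trend 2751 and 6400, and without scaling 7323 lower. The low ends came without the library labelled ERF2i-2, that of 6 also without that labelled ERF2i-3; leaving out either ERF2i or either GUSi library moved each of these counts against GUSi by over 1.5 times, and without ERF1i-7 the ERF1i counts were 1605 and 1146. The other alternatives run on these contrasts kept them within 1.5 times. *OpERF1* (c15284_g1_i1) turned from -0.86 to 1.17 with the lines as 2 sides, and *OpERF2* (c17706_g2_i1) from 0.29 to -0.032 with limma-trend and between -0.45 and 0.78 with 1 library left out. None of the 126 other named contigs changed sign under any alternative run on them. Each had been chosen with all silenced lines on the same side of GUSi, so the lack of sign changes was largely fixed by that choice. It is no separate sign of stability. Of these 126 contigs, 62 kept their call in all 6 fits with 1 library left out, and 113 to 126 under the other 3-group settings. The cause of these changes was not tested.

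No paired analysis was possible, since each line is an independently transformed clone and the labels give no pairing of lines. With 1 library per clone and 2 clones per construct, a left-out fit assumes that a lone clone varies like the other groups. Contigs near the filter rest on few counts, as *OpERF2* does.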
